A study of Drosophila melanogaster with 4 samples.

Results

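The very long acetylated domains of fly head chromatin were taken from the authors' combined replicate set and chosen by their measured length: all enriched regions of at least 20 kb from first to last base. The rule found 378 domains among 10650 enriched regions. All of them lay on the 5 large chromosome arms 2L, 2R, 3L, 3R and X. Length in the combined set chose the members, so their number, length and combined score are a description and carry no test. Regions of 10 to 20 kb in the same set, 663 in all, are given beside them for comparison.

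Acetylation of lysine 8 of histone H4 (H4K8ac) was profiled by ChIP-seq, that is, sequencing of DNA pulled down with an antibody against the mark, in nuclei from heads of wild-type Oregon-R Drosophila melanogaster, with mixed adults as the stage. There were 2 ChIP libraries, each with its own input library per the labels, and 1 list of enriched regions, here called clusters, was used per ChIP library beside the combined set. No sex or treatment is given in the labels, and they do not state whether separate collections of flies were used for the replicates. Read totals are not in the lists, so depth is unknown and no error of a single score can be given. Where a mean ± SD is given, n = 2 ChIP replicates, and the spread may be technical.

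Acetylation of H4 tail lysines neutralises their positive charge, loosens the contact of the tail with DNA and can be read by proteins with a bromodomain. H4K8ac is found at active chromatin. It often marks short stretches at promoters and enhancers, but acetylated nucleosomes can also extend over whole genes and groups of genes. A fly head holds neurons, glia, photoreceptors, muscle and fat body, so a domain may be acetylated in few or many of these cells, and the lists cannot tell these apart. The lists hold no expression values, and gene annotation of FlyBase release 5, the build of the coordinates, was not used here. No gene is therefore assigned to a domain, and the tissue was not checked by marker genes.

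The 378 domains were 3.55% of the enriched regions and held 12.6 Mb, or 26.3% of the enriched bases of the combined set. Their median length was 28.0 kb, with quartiles of 23.4 and 38.2 kb, and the longest measured 130.1 kb. Of the 378, 134 were shorter than 25 kb, 161 reached 30 kb, 39 reached 50 kb and 2 reached 100 kb. Within 1 kb of the limit, 32 domains of 20000 to 20977 bp lay just inside, with a median score of 0.69. Another 27 regions of 19014 to 19982 bp lay just outside, with a median score of 0.72. The limit thus does not mark a step in score.

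The autosomal arms carried the domains at similar densities and X carried few. There were 69 on 2L, 77 on 2R, 92 on 3L and 113 on 3R, or 3.00, 3.64, 3.75 and 4.05 per Mb. X had 27, or 1.20 per Mb, against 3.63 per Mb over the autosomal arms together. The domains took up 12.2% of the autosomal sequence and 3.46% of X. Regions of 10 to 20 kb were closer in density, at 4.73 per Mb of X and 5.77 per Mb of the autosomal arms. In the replicate lists themselves, clusters of at least 20 kb numbered 129 in replicate 1 and 117 in replicate 2. X held 3 of these in replicate 1 and 2 in replicate 2. The scores also allow a reading of input reads per kb, and X had 0.579 ± 0.0320 times the autosomal value (SD, n = 2). Its part in the low number on X was not tested. With 2 replicates no exact paired test can go below p = 0.5, so differences between arms and classes are given as values.

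**Figure D1:**
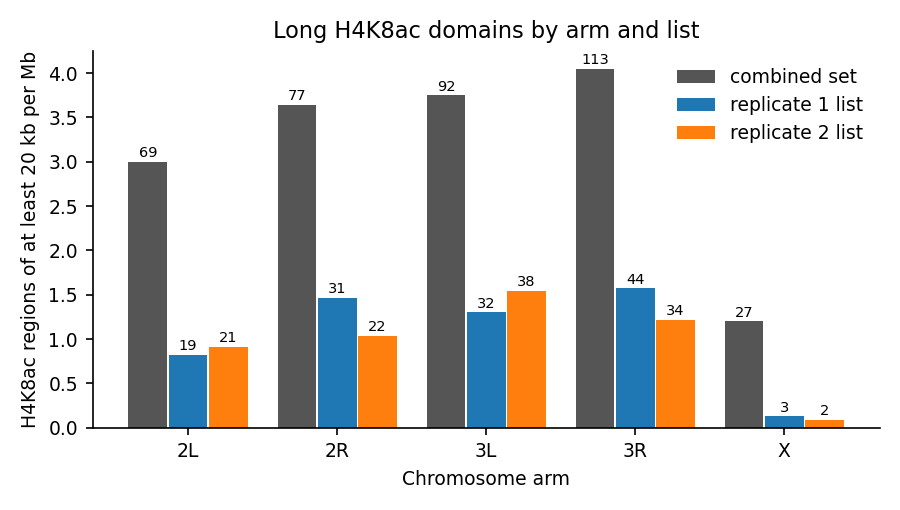
Number of H4K8ac regions of at least 20 kb per Mb of each chromosome arm, in the combined set and in the list of each replicate, with the number of regions above each bar. X has the lowest bar in every list, with 27 regions in the combined set and 3 and 2 in the replicates.

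Along the arms the domains were unevenly spread. When each arm sequence was split into 5 equal parts from its first base, 3R had 33 and 37 domains in the last 2 parts against 10 in the first. On 3L the first part held most, 25 of 92, and the last held 12. On X the first part held 10 of the 27. No domain reached into the last 1.99 Mb of 2L, 2.08 Mb of 3L or 3.06 Mb of X, which are the centromere ends of these sequences. At the centromere end of 2R the first domain started at 1.70 Mb, and at that of 3R at 0.799 Mb. Of 117 full windows of 1 Mb, 14 held no domain and 23 held 1. The fullest were 3L 2000001 to 3000000 and 3R 22000001 to 23000000, with 11 domains each, followed by 3L 10000001 to 11000000 with 10. Mappability was not examined, so empty stretches are a statement on calls.

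Gaps between neighbouring domains ranged from 1 bp to 2.35 Mb. The median of the 373 gaps was 121.4 kb, with quartiles of 23.1 and 372.1 kb. On average there was 1 domain per 314.9 kb of sequence. This is a mean that includes the domains themselves, so it is not comparable with the median gap. The median gap was 65.8 kb on 3L, 90.2 kb on 3R, 143.9 kb on 2R, 151.2 kb on 2L and 582.1 kb on X. At the short end, 66 gaps (17.7%) were at most 10 kb and 126 (33.8%) at most 50 kb. The longest gap lay on X. Gaps between regions of 10 to 20 kb had similar shares at most 10 kb, 18.8%, and at most 50 kb, 38.6%. These regions were denser, with 1 per 179.5 kb of sequence against 1 domain per 314.9 kb. At fixed gap limits the shares of the 2 classes are therefore not like for like. Close neighbours were thus found in both length classes.

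Chained over gaps of at most 50 kb, 212 of the 378 domains (56.1%) fell into 86 groups, and 166 stood alone. Pairs were the most frequent, with 63 groups, and 23 groups held 3 or more domains. Grouping was most frequent on 3L, with 68.5% of its domains, and on 3R, with 66.4%. It was least frequent on X, where 7 of 27 domains were grouped. Domains were also densest on 3L and 3R, at 3.75 and 4.05 per Mb, and sparsest on X, at 1.20 per Mb. At a fixed gap limit the grouped share depends on density too, and it was not adjusted for density. A grouped share of the regions of 10 to 20 kb was not computed. Grouped domains had a median length of 28.4 kb and a score of 0.77, and those alone had 27.8 kb and 0.75. The classes thus differed little in length and score. On the autosomal arms alone the grouped share was 58.4%.

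The group with most members was a run of 7 domains at 2L 14435778 to 14676143. It spanned 240.4 kb, of which 82.0% lay in domains. Scores rose and fell along it: the outer domains had 0.58 each, and the highest, at 14525387 to 14548456, had 0.89. That domain was a single cluster in both replicates, covered to 92.6% in replicate 1 and 99.5% in replicate 2. The last domain of the run was in 5 pieces covering 63.2% in replicate 1 and 4 pieces covering 83.7% in replicate 2. Over the whole span replicate clusters covered 74.7% ± 6.27.

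A group of 6 domains lay at 3L 2687901 to 2925012, in the fullest window. Its members measured 20.5 to 32.4 kb and had scores of 0.68 to 0.87. Replicate clusters covered 66.7% ± 1.14 of its 237.1 kb. There were also 2 groups of 5 domains, both on 3L. The first, at 10106971 to 10408539, was the widest group of all, at 301.6 kb. It changed along its length: the first 2 domains had scores of 0.68 and 0.71 and were in 6 or more pieces in each replicate. The other 3 had 0.93 to 1.01 and were in 3 or 4 pieces. The second group of 5, at 11263497 to 11546606, held the longest domain of the set, 130.1 kb, and 85.8% of its 283.1 kb lay in domains. Its members had scores of 0.76 to 0.90.

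Many close neighbours were parted by very short breaks. In 32 cases the gap was at most 1 kb, with a median of 212 bp and a range of 1 to 960 bp. Replicate 1 had no cluster that spanned any of these 32 gaps, and replicate 2 had 1 such cluster. Of the 8314 gap bases, 0.637% lay in a replicate 1 cluster and 1.59% in a replicate 2 cluster. The other 31 breaks were thus spanned in neither list. The combined set stands for the same libraries, so this is no independent check of the breaks. Short breaks were also common between a domain and its nearest region of any length, with 39.2% of domain sides under 500 bp from it. For regions of 10 to 20 kb the share was 40.3%. When clusters of the combined set less than 500 bp apart were joined, 519 regions reached 20 kb. The longest of them was still the 130.1 kb domain on 3L.

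The domains were moderately enriched over input. The authors' score, taken as the log2 ChIP to input ratio, had a median of 0.76 in the domains, or 1.70-fold. It ranged from 0.49 to 1.37. Regions of 10 to 20 kb had a median of 0.67. Within the domains longer ones scored higher, from a median of 0.73 at 20 to 25 kb to 0.78 at 30 to 40 kb and 0.85 at 50 to 75 kb. Spearman's rho of length and score was 0.352 across the 378 domains, which share the same libraries. By arm the medians were 0.73 on 2L, 0.76 on 2R, 3L and 3R, and 0.84 on X. X also had 0.579 ± 0.0320 times the autosomal input reads per kb (SD, n = 2). Its part in the higher scores on X was not tested.

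**Figure D2:**
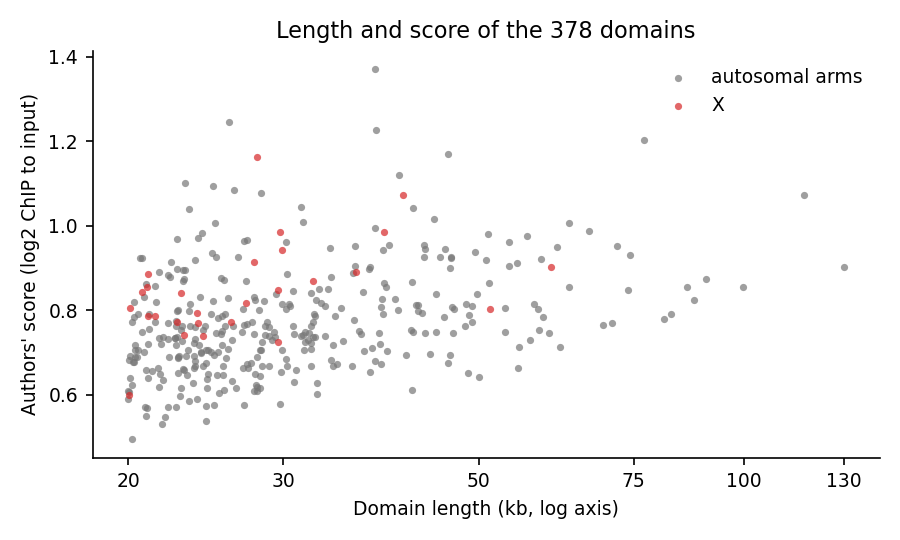
Authors' score of the combined set (log2 of ChIP to input) against length in kb on a log axis for each of the 378 domains, with X in red. The 3 domains with the highest scores, 1.23 to 1.37, are at most 38.2 kb long, and the 9 domains of 75 kb or more score between 0.78 and 1.20.

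The highest score, 1.37 or 2.59-fold, belonged to 3R 27243472 to 27281645, near the telomere end of the arm. Each replicate had it as 1 piece, with scores of 1.41 and 1.36, covering 98.9% and 95.5%. The next was 2R 5428946 to 5454980, at 1.25, with replicate scores of 1.30 and 1.20. The third, 3R 834254 to 872444, had 1.23 and was also 1 piece in each replicate, covering 99.2% in both. None of these 3 was longer than 38.2 kb. The lowest scores belonged to 3R 21236789 to 21256974 at 0.49, 2L 18253414 to 18275273 at 0.53 and 3L 18948376 to 18972889 at 0.54. In the replicates these were broken into 2 to 7 pieces of at most 9.09 kb.

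In single replicates most domains were broken into several clusters. On average a domain overlapped 3.71 clusters in replicate 1 and 3.98 in replicate 2, or 3.85 ± 0.191 (SD, n = 2), and none was without a cluster in either. It was 1 unbroken piece in 47 domains of replicate 1 and 35 of replicate 2, of which 17 were the same domains. In 271 and 274 domains there were 3 or more pieces, and the largest number was 12 in each replicate. The replicates had the same number of pieces in 101 domains and differed by at most 1 in 245. The longest piece covered a median of 47.8% of the domain in replicate 1 and 45.8% in replicate 2. A replicate cluster of at least 20 kb was found in 122 and 105 domains, in 74 of them in both replicates, and 225 domains had none in either. Most domains therefore passed 20 kb only in the combined set. Breaks between pieces, counted as the pieces less 1 in each region, numbered 8.57 ± 0.574 per 100 kb of domain (SD, n = 2). In regions of 10 to 20 kb there were 10.5 ± 0.304 per 100 kb.

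The pieces nevertheless held most of the domain bases. Replicate 1 clusters held 89.9% of all domain bases and replicate 2 clusters 87.8%, or 88.8% ± 1.49. For regions of 10 to 20 kb the value was 77.9% ± 1.99 (SD, n = 2). The combined set stands for the same libraries, so high coverage does not check the domains independently. By domain, coverage ranged from 28.3% to 99.99% in replicate 1, with a median of 90.9%. In replicate 2 it ranged from 39.0% to 99.8%, with a median of 88.6%. In 132 domains it was at least 90% in both. It was under 50% in 1 domain of replicate 1 and 3 of replicate 2. Coverage went with the combined score, with a Spearman's rho of 0.670 in replicate 1 and 0.725 in replicate 2 across the same domains. On X, coverage was 81.2% and 80.5%, below every autosomal arm in both replicates.

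**Figure D3:**
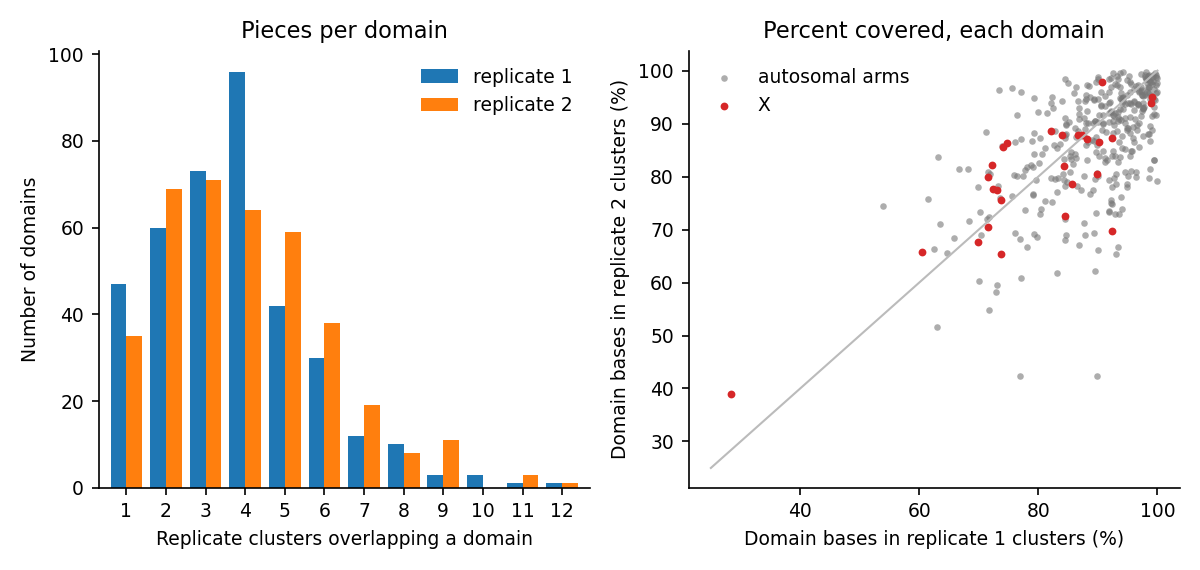
Left, number of the 378 domains that overlap 1 to 12 clusters of replicate 1 (blue) or replicate 2 (orange). Right, percent of the bases of each domain inside clusters of replicate 1 (x axis) and replicate 2 (y axis), with X in red and a line of equal values. Most points are above 70% on both axes, and the lowest is an X domain at 28.3% and 39.0%.

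The replicates ranked the domains in a similar way. Length-weighted piece scores had a Pearson's r of 0.846 and a Spearman's rho of 0.805 between replicates across the domains. Replicate 1 was higher in 268 of 378 domains, with a median difference of 0.04 and an SD of 0.07 over the domains. Rank agreement was lower for percent covered, with a rho of 0.585, and for the number of pieces, with a rho of 0.571. The median absolute difference in percent covered was 4.81 percentage points, and it was over 20 in 16 domains. The largest difference was at 3L 1985702 to 2011378. Both replicates had 5 pieces there, which covered 89.8% in replicate 1 and 42.3% in replicate 2. It was followed by 3L 18948376 to 18972889, with 76.9% and 42.3%, and by 3L 4953957 to 4975537, with 93.0% and 65.4%. In all 3 replicate 1 was the higher.

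The least covered domain was X 4080647 to 4100651, 20005 bp long, with 3 pieces in each replicate that covered 28.3% and 39.0%. Its combined score was 0.60. The next were 3R 21236789 to 21256974 and 3L 18948376 to 18972889, both also among the lowest scores, at 57.3% ± 8.06 and 59.6% ± 24.5. The most divided domain was 3L 19344115 to 19386103, with 12 pieces in replicate 1 and 9 in replicate 2, none over 6.57 kb. On 2R, 16035886 to 16085880 had 11 and 9 pieces, and on X, 4997989 to 5049530 had 8 and 12. Their combined scores were 0.61, 0.64 and 0.80.

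The longest domains of each arm differed in how far they held together. The 117.1 kb domain at 3R 5694738 to 5811852 had the longest piece of any replicate list, 100.4 kb in replicate 1, whereas its longest piece in replicate 2 measured 54.2 kb. The 130.1 kb domain at 3L 11325022 to 11455091 had 10 pieces in replicate 1, the longest 34.1 kb, and 4 in replicate 2, the longest 66.8 kb. Coverage was high in both, at 92.9% and 97.6%. On 3L, 22301130 to 22401045 had 2 and 5 pieces and 19136947 to 19227579 had 3 and 5, and all 4 coverages were between 95.4% and 97.4%. On 3R, 13746963 to 13833194 had 8 and 6 pieces and 6803485 to 6872802 had 8 and 9. The more divided replicate was not the same throughout these domains.

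On 2L, 13036128 to 13102908 had 3 pieces in each replicate, the longest 42.0 and 42.5 kb, and was covered to 97.6% ± 1.06. The longest of the arm, at 7893865 to 7968213, had 4 and 5 pieces. The third, at 3082652 to 3144557, was lower in score, at 0.71 against 0.99 and 0.93, and more divided, with 7 and 8 pieces. On 2R, 14172484 to 14244278 was covered to 98.99% ± 0.297 in 3 and 2 pieces. The longest of that arm, at 6911531 to 6994300, had 10 and 6 pieces, and 11588240 to 11649677 had 4 and 5. On X, the 60.4 kb domain at 968598 to 1029045 was covered to 83.2% ± 1.59 in 9 and 6 pieces. The 41.0 kb domain at 737514 to 778549 was covered to 97.1% ± 2.87 in 1 and 3 pieces, with replicate scores of 1.21 and 1.00.

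The breaks inside the domains were short. Replicate 1 had 1026 breaks between pieces, with a median of 494.5 bp, and replicate 2 had 1126, with a median of 533.5 bp. Of these, 50.2% and 47.9% were under 500 bp, and the longest measured 6266 and 8896 bp. Breaks between pieces held most of the uncovered bases, and stretches at the domain edges held 38.0% and 38.4%. The uncovered bases partly coincided. Of those of replicate 1, 42.4% were also uncovered in replicate 2, which left 12.2% of all domain bases uncovered. Of those of replicate 2, 35.1% were uncovered in replicate 1, against 10.1% of all domain bases. These shares include the edge stretches, present at 666 of 756 domain edges in replicate 1 and 699 in replicate 2. Shares for bases in breaks alone were not computed. In 48.5% of the breaks of replicate 1 and 43.7% of those of replicate 2, at least 1 base was uncovered in the other replicate.

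From edge to centre, piece scores rose slightly. Each base took the score of the replicate cluster that covered it, and each domain was folded at its middle into 5 bins of 10% of its length. In the outer bin the median was 0.80 in replicate 1 and 0.75 in replicate 2. In the central bin it was 0.86 and 0.81. Within domains the centre exceeded the edge by a median of 0.047 ± 0.0017 (SD, n = 2) on the log2 scale. The centre was higher in 234 domains of replicate 1 and 254 of replicate 2, lower in 92 and 85, and equal in 49 and 37. Both replicates had the higher score at the centre in 176 of 373 domains with values in both, and opposite signs occurred in 96. For regions of 10 to 20 kb the median difference was 0.0063 ± 0.00017, with equal values in 144 of 615 and 139 of 604 regions. The means lay closer together, at 0.044 and 0.043 in these regions against 0.058 and 0.059 in the domains. In those split into 3 or more pieces the medians were 0.041 and 0.046 against 0.064 and 0.065. The arms had positive medians in both replicates except X, which had -0.011 in replicate 1 and 0.076 in replicate 2.

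This gradient goes with piece length. The central bin was covered by pieces with a median length of 13.3 kb in replicate 1 and 12.3 kb in replicate 2, against 8.40 and 7.38 kb in the outer bin. Longer pieces scored higher, with a Spearman's rho of 0.742 and 0.749 across the pieces. A piece that covers more than 50% of a domain always covers its centre. The longest piece covered more than 50% in 47.4% and 44.7% of domains. It covered the centre in 69.0% and 66.4%. When each piece was counted once in domains with 3 or more, inner pieces had medians of 0.74 in replicate 1 and 0.71 in replicate 2, and outer pieces also 0.74 and 0.71. The difference of inner minus outer pieces was 0.0040 in replicate 1 and -0.0073 in replicate 2. The replicates thus had the rise toward the centre in common per base but not per piece.

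**Figure D4:**
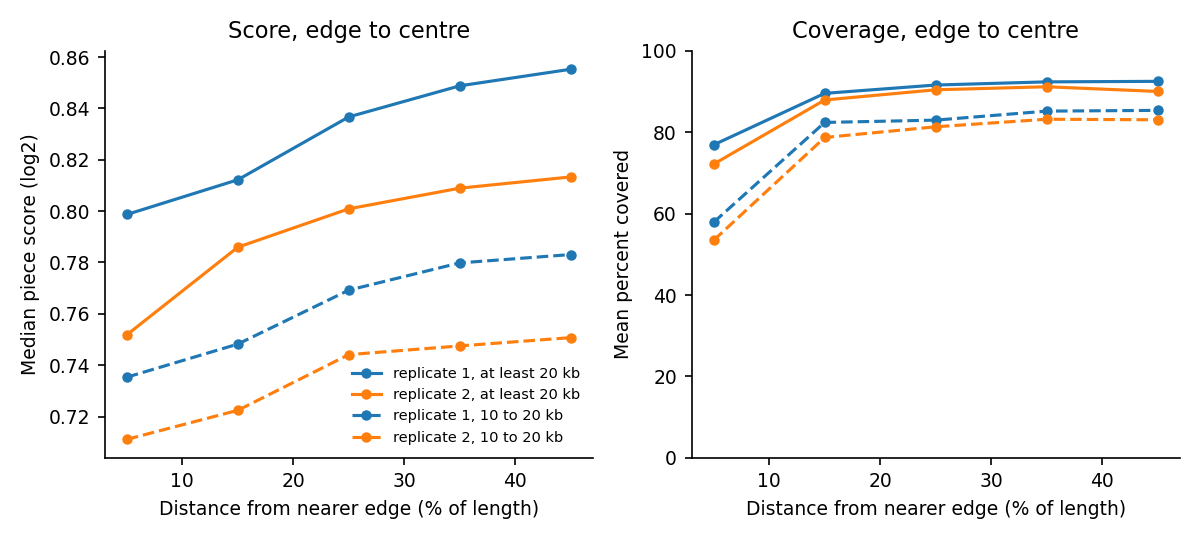
Left, median score (log2) of the replicate clusters covering each part of a domain, from the edge to the centre in 5 bins of 10% of the length, drawn at the middle of each bin. Right, mean percent of bases covered in the same bins. Solid lines are the 378 domains and dashed lines the 663 regions of 10 to 20 kb; the score axis does not start at 0. The solid lines rise from 0.80 and 0.75 to 0.86 and 0.81.

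Coverage fell mainly in the outermost part. It averaged 76.9% and 72.2% in the outer bin of the domains, 89.5% and 87.9% in the next, and 92.5% and 90.002% in the central one. In regions of 10 to 20 kb the outer bin, which is shorter in bp there, was covered to 57.9% and 53.5%. Replicate clusters usually started inside the domain: the first covered base lay a median of 258.5 bp from the domain edge in replicate 1 and 384 bp in replicate 2. In regions of 10 to 20 kb these medians were 352.5 and 455 bp. A piece reached past an edge in 86 and 52 domains.

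The 50 kb on either side of the domains was rich in shorter clusters. In 25.8 Mb of flanking sequence outside domains, replicate 1 had 2377 clusters under 20 kb, or 9.21 per 100 kb, against 5.40 in the other 80.7 Mb of the arms. Replicate 2 had 9.02 against 5.32 per 100 kb. The ratio of flank to rest was 1.70 ± 0.00809 (SD, n = 2), and in the combined set it was 1.34. The ratio was above 1 on every arm in every list. In the replicates it ranged from 1.45 on X in replicate 2 to 1.86 on 2R in replicate 1. Regions of 10 to 20 kb also had rich flanks: for clusters under 10 kb their ratio was 1.82 ± 0.0613, against 1.68 ± 0.00464 for the domains. For each class, only the bases of that class were left out. Replicate clusters under 10 kb inside the domains could thus count for the regions of 10 to 20 kb. The 2 ratios are therefore not like for like, and both were above 1.

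Density was highest near the domains. In the replicates it was 11.2 ± 0.712 per 100 kb within 10 kb of a domain edge, 8.81 ± 0.0990 at 20 to 30 kb and 6.96 ± 0.0643 at 40 to 50 kb. The combined set fell much less over the flank, with 12.696, 12.104 and 10.578 per 100 kb in the same bins. Farther out, density in the replicates did not fall steadily, with 5.21 ± 0.165 at 100 to 200 kb and 5.48 ± 0.00771 at 200 to 500 kb. In the combined set the bins of 100 to 200 and 200 to 500 kb had 8.69 and 9.27 per 100 kb. Beyond 500 kb, where 48.0% of the sequence was on X, the replicates had 3.61 ± 0.116. Covered bases were 35.6% ± 2.32 within 10 kb and 9.52% ± 0.786 beyond 500 kb. Median scores of these shorter clusters changed little, from 0.65 within 10 kb to 0.62 at 50 to 100 kb. They were 0.74 beyond 500 kb. By domain, flank density had a median of 9.46 per 100 kb in replicate 1 and 9.00 in replicate 2. Flank outside other domains was under 50 kb in 26 domains and as short as 3 kb, so values of such domains rest on little sequence. The flanks held no shorter cluster in 4 domains of replicate 1 and 5 of replicate 2. Among these, picked out after its values were seen, 3R 25283847 to 25307329 had none in any list in the 51.8 kb of its flanks outside other domains.

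**Figure D5:**
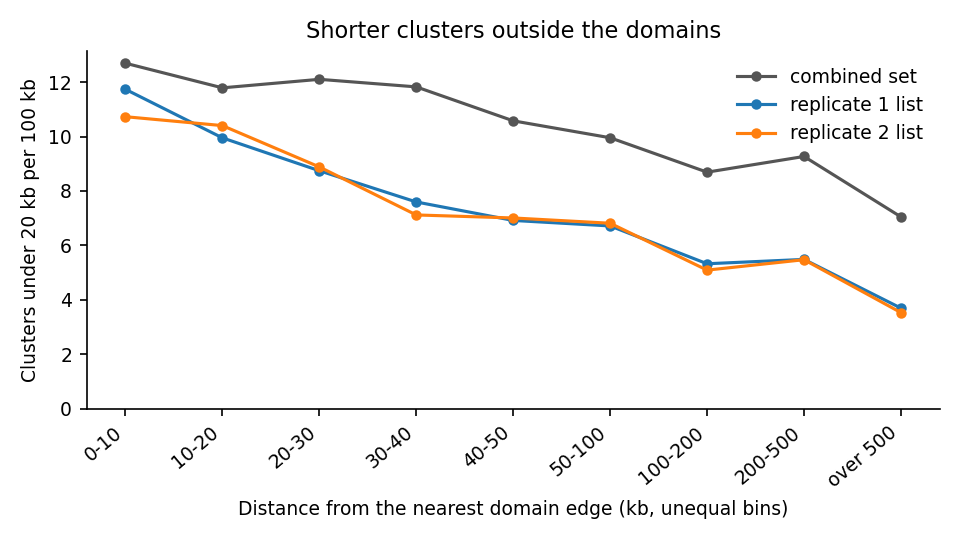
Clusters shorter than 20 kb per 100 kb of sequence outside the domains, by distance of their midpoint from the nearest domain edge in kb (bins of unequal width), for the combined set and each replicate list. The replicates have 11.7 and 10.7 within 10 kb and 3.69 and 3.53 beyond 500 kb, with a small rise between 100 to 200 and 200 to 500 kb. The combined set falls less near the domains, from 12.696 within 10 kb to 10.578 at 40 to 50 kb.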

How the data were processed

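Per the labels, 4 libraries were made, 2 H4K8ac ChIP and 2 input, and titles gave groups and replicate numbers. The deposited lists hold a start, an end and 1 score per region, in FlyBase release 5 coordinates per the file headers. Per the submitters' processing notes, the tools include Bowtie 0.12.7. How regions were called, with what threshold, and how replicates were merged into the combined set is not given in the sources used here. Scores are used as deposited and were read as log2, because 2 raised to the score gave ratios of whole numbers, relative to the most frequent score, for at least 99.8% of clusters in each list (relative tolerance 1e-13). Base e or 10 did so for at most 0.871%. Input density per kb came from the 70th percentile of the denominators in clusters of 2000 bp to 10 kb, and only its ratio is used.

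Pieces are replicate clusters that overlap a domain by at least 1 bp. Flanking clusters were placed by midpoint. No test was made, since length chose the members and the smallest p of an exact paired test on 2 replicates is 0.5. Values were computed with Python 3.11.15, numpy 2.4.6 and pandas 2.3.3. The functions were tested on simulated data with 335 domains, and all 7 checks gave the built values. The members, the comparison class and the measures were chosen with earlier results of these data known. Named regions are the 3 longest of each arm, the 3 highest and 3 lowest scores, the 3 with most pieces, the 3 least covered, the 3 with the largest replicate difference and the groups with most members. Gene lists were planned but not used, because the reference table is of release 6 and coordinates were not converted. Alternatives changed the length limit, gaps, flanks, overlap, merging and replicates. Leaving out X and counting pieces once were chosen after seeing the data.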

Additional observations from a re-analysis of the deposited data

Results flagged for a closer look

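A region marked as depleted was also listed in the combined set, outside the measure of enrichment used for the domains. It lay on 3R, 25.7 kb from the nearest domain, which starts at 23434151, and had a score of -0.028.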

How the results depend on the processing

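Of 48 alternative values, 17 stayed within a tolerance, 30 moved beyond it and the mean of 1 turned sign. The tolerance was 1 SD over the replicates, a factor of 1.5 for the number of domains and the exact 95% binomial interval for the grouped share. For spacing, which has no replicate spread, any difference counted as a move. Where a result is a mean over the 2 replicates, either replicate alone always lies within 1 SD of it. Those values, counted among the 17, were thus fixed in advance. With limits of 15 and 30 kb there were 582 and 161 domains, and single replicates gave 117 to 129. Median gaps were 63.4 and 349.5 kb at these limits, 92.1 kb after merging over 500 bp and 117.7 kb without X. The grouped share was 68.4% and 29.2% at these limits, and 44.4% and 66.4% with gaps of 25 and 100 kb. The median score was 0.81 at 30 kb. Pieces per domain were 3.48 and 4.35 at the limits and 2.45 after merging replicate clusters. Coverage was 87.1% and 91.7% at the limits, and 81.1% with the upper 50% of clusters by score. The centre exceeded the edge by 0.036 and 0.049 at the limits, 0.038 between under 2 kb and over 8 kb, and 0.065 in domains of 3 or more pieces. Inner minus outer pieces, each counted once, gave a mean of -0.0016, from 0.0040 in replicate 1 and -0.0073 in replicate 2. The flank ratio was 1.89 and 1.60 at the limits, where the counted clusters were those under 15 and 30 kb. It was 1.86 and 1.64 with flanks of 25 and 100 kb, and 1.63 for clusters under 5 kb. Without 1 Mb at each arm end it was 1.63, and in the combined set 1.34. No paired analysis was possible because the groups that share replicate numbers are ChIP and input, and no list of an input library was used. Differences within each replicate are given as mean ± SD. Number, spacing and grouping depend on the length limit. Depth is unknown, and the 2 replicates underlie the combined set, so their agreement with it is not independent.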
